A study of Arabidopsis thaliana with 12 samples.

Results

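The 8 genes described here are *PR1*, *PR2*, *PR5*, *PAD3*, *PAD4*, *EDS1*, *ICS1* and *WRKY70*, a set of salicylate defence genes picked by their AGI identifiers from the 33078 nuclear loci of the table of all conditions. Of the 8, 7 were found by identifier. No row carries the identifier of *PR1* (AT2G14610), and its locus was taken by symbol and position, as described below. RNA came from whole seedlings of the *sig2-2* mutant, a T-DNA insertion line (SALK_045706) in the Col-0 background, and of Col-0 wild type (WT), each at 7 d and at 1 d of constant red (Rc) light. All seedlings grew at 22 °C under 50 μmol m-2 s-1 on Murashige and Skoog medium with 1% sucrose, after 4 days of stratification in the cold. The 12 samples are 3 biological replicates of each of these 4 conditions. Each condition has 1 deposited value per locus, in FPKM (fragments counted per length of transcript and per mapped total of the library), in which the authors combined the replicates. No spread between replicates can therefore be given, no test was made, and the number of reads behind each value is unknown. A difference between conditions below is a difference between 2 combined values, and a value of 0 is only what the table lists.

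Salicylate (SA) is a phenolic hormone of plant defence against biotrophic pathogens. In Arabidopsis most of the defence-induced SA derives from chorismate through isochorismate, made in plastids by ICS1, an enzyme that also feeds phylloquinone synthesis. The lipase-like proteins EDS1 and PAD4 act together upstream, in a loop that reinforces SA accumulation. SA is perceived by NPR proteins, which act with TGA transcription factors on targets such as the *PATHOGENESIS-RELATED* (*PR*) genes, while WRKY factors bind W-box elements in many of the same promoters. *PAD3* encodes the cytochrome P450 of the last step of camalexin synthesis, the phytoalexin branch of the same defence response.

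The targeted gene followed the genotype labels. *SIG2* (AT1G08540), which encodes a promoter-recognition subunit for plastid transcription, was at 1.49 FPKM in *sig2-2* and 87.7 FPKM in WT at 7 d. At 1 d it was at 1.31 FPKM in *sig2-2* and 66.5 FPKM in WT. Marker genes showed shoot and root transcripts in the seedlings and seed reserve transcripts mainly at 1 d. The summed level of 4 shoot markers was 58993 FPKM in *sig2-2* and 47965 FPKM in WT at 7 d, and 3514.5 FPKM in *sig2-2* and 2126 FPKM in WT at 1 d. Of these 4, 1 was higher in *sig2-2* at 7 d and 3 were lower. The 4 root markers summed to 30.1 FPKM in *sig2-2* and 26.6 FPKM in WT at 7 d, and to 44.9 FPKM in *sig2-2* and 8.55 FPKM in WT at 1 d. Of the root markers, 3 were lower in *sig2-2* at 7 d and 3 were higher at 1 d. The 6 seed reserve markers summed to 3.71 FPKM in *sig2-2* and 0.651 FPKM in WT at 7 d, and to 147 FPKM in *sig2-2* and 43.6 FPKM in WT at 1 d. Of these, 6 were higher in *sig2-2* at 7 d, and 5 were higher and 1 was lower at 1 d. The lower one, *OLEO2*, was at 16.1 FPKM in *sig2-2* and 26.7 FPKM in WT at 1 d. *SESA3*, the largest in *sig2-2* at 1 d, was at 67.2 FPKM there and 1.63 FPKM in WT. Listed at 0 were the shoot marker *CA1* in *sig2-2* at 1 d, the root marker *CASP1* in WT at 1 d and 3 seed reserve markers in WT at 7 d. The part of these markers in the values below was not tested. In whole seedlings, fewer cells of a type and less RNA per cell cannot be told apart.

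The locus named PR1 at the position of AT2G14610 lies on chromosome 2 from 6241704 to 6242463 in the authors' table, whose genome build is not named in the sources used here. The table lists it under AT4G33710, an identifier it also gives to a locus on chromosome 4 from 16181012 to 16181776, which is listed at 0 in all 4 conditions. *PR2*, listed as BGL2 (AT3G57260), lies on chromosome 3 from 21188517 to 21189859, and *PR5* (AT1G75040) on chromosome 1 from 28177703 to 28178940. *PAD3* (AT3G26830, from 9887948 to 9889705), *PAD4* (AT3G52430, from 19431371 to 19434403), *EDS1* (AT3G48090, from 17755374 to 17757780) and *WRKY70* (AT3G56400, from 20908928 to 20910481) lie on chromosome 3. *ICS1*, listed as EDS16 (AT1G74710), lies on chromosome 1 from 28070295 to 28074148. In the RefSeq TAIR10.1 genome, at least 99.2% of the exonic words of 55 bases, the read length, occurred once for each of the 8 genes, and all of them did for 6. The lowest shares were those of *EDS1* at 99.2% and *ICS1* at 99.9%. *EDS1B* (AT3G48080), the neighbouring copy of *EDS1*, was at 1.44 FPKM in *sig2-2* and 1.18 FPKM in WT at 7 d, and reads of the shared stretches could have been split between the copies.

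Both factor families of this response have short recognition cores. The 250 bases before the annotated start of each gene were therefore searched on both strands for TTGAC, the core of the W-box bound by WRKY factors, and for TGACG, the core bound by TGA factors. TTGAC was found in 4 of the 8 genes (*PR1*, *PR5*, *EDS1* and *WRKY70*), against 44.9% of 27443 nuclear protein-coding genes. The longer form TTGACT was in 2 of the 8, *PR5* and *EDS1*, against 19.1% of all, and TTGACC was in 0, against 12.2% of all. TGACG was in 1 of the 8, *WRKY70*, which held 2 matches, against 18.6% of all. These shares come from letters alone, and bases farther than 250 from the start were not searched. Shown here are the windows of *PR5*, the member past 2-fold at 7 d with a pseudocount of 1, of *EDS1*, with the largest log2 difference at 1 d, of *WRKY70*, which holds both cores, and of *ICS1*, the most abundant member at 1 d, which holds neither. They are from RefSeq, build TAIR10.1, 5′ to 3′ in the direction of the gene, with capitals on each TTGAC or TGACG match, read as GTCAA or CGTCA where it is on the other strand. In *WRKY70* the second TGACG match overlaps the TTGAC match.
*PR5*, chr1:28177420-28177669, plus strand: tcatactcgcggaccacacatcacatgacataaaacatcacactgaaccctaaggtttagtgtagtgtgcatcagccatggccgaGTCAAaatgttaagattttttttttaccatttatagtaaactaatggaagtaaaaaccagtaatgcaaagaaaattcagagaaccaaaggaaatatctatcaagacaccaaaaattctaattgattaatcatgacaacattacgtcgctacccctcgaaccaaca
*EDS1*, chr3:17758148-17758397, minus strand: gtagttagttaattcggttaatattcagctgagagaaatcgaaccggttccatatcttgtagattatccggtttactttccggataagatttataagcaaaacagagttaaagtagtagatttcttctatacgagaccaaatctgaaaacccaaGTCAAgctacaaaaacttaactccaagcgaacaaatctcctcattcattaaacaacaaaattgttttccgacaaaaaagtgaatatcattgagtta
*WRKY70*, chr3:20910624-20910873, minus strand: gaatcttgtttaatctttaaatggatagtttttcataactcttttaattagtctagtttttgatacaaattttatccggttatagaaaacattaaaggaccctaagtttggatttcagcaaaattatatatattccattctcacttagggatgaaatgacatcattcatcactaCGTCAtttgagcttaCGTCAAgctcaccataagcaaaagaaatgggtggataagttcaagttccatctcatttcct
*ICS1*, chr1:28070045-28070294, plus strand: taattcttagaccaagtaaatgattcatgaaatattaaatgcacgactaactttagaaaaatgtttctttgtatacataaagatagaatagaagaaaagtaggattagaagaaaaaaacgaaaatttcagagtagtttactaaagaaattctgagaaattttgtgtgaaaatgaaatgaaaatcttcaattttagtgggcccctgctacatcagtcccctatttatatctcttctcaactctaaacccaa

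Of the *PR* genes, the usual readout of SA signalling, *PR1* and *PR2* were under 1 FPKM in all 4 conditions. *PR1*, a secreted protein of the CAP family, was listed at 0.0802 FPKM in *sig2-2* and at 0 in WT at 7 d, and at 0.0851 FPKM in *sig2-2* and at 0 in WT at 1 d. *PR2*, a β-1,3-glucanase, was listed at 0 in *sig2-2* and at 0.489 FPKM in WT at 7 d, and at 0 in both genotypes at 1 d. For these genes no fold was computed, since at each age at least 1 of the genotypes was listed at 0. *PR5*, a thaumatin-like protein, was at 2.19 FPKM in *sig2-2* and 5.55 FPKM in WT at 7 d, and at 0 in both at 1 d. *PR5* was thus 2.54-fold lower in *sig2-2* at 7 d, or −1.04 as log2 of (*sig2-2* + 1)/(WT + 1), the scale of every log2 difference between genotypes given here. This scale understates the differences of genes with low values.

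The genes of the EDS1 node and of SA synthesis were transcribed at both ages. *PAD4* was at 4.30 FPKM in *sig2-2* and 6.55 FPKM in WT at 7 d, 1.52-fold lower in *sig2-2* (log2 difference −0.51). At 1 d *PAD4* was at 1.86 FPKM in *sig2-2* and 1.32 FPKM in WT (log2 difference 0.30), so *PAD4* was higher in *sig2-2* at 1 d and lower at 7 d. *EDS1* was at 11.3 FPKM in *sig2-2* and 11.5 FPKM in WT at 7 d (log2 difference −0.02). At 1 d *EDS1* was at 2.57 FPKM in *sig2-2* and 1.31 FPKM in WT, 1.96-fold higher in *sig2-2* (log2 difference 0.63). The larger of the 2 differences was the one at 7 d for *PAD4* and the one at 1 d for *EDS1*. *ICS1* was at 9.37 FPKM in *sig2-2* and 10.5 FPKM in WT at 7 d (log2 difference −0.15), and at 42.4 FPKM in *sig2-2* and 35.7 FPKM in WT at 1 d (log2 difference 0.24).

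*WRKY70*, a transcription factor that sits between SA and jasmonate signalling, was at 8.41 FPKM in *sig2-2* and 9.02 FPKM in WT at 7 d (log2 difference −0.09). At 1 d it was at 0.653 FPKM in *sig2-2* and 0.470 FPKM in WT (log2 difference 0.17). *PAD3* was at 4.93 FPKM in *sig2-2* and 4.35 FPKM in WT at 7 d (log2 difference 0.15), and at 0.0325 FPKM in *sig2-2* and 0.132 FPKM in WT at 1 d (log2 difference −0.13). *PAD3* was the only member with a higher value in *sig2-2* at 7 d and a lower one at 1 d.

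**Figure D1:**
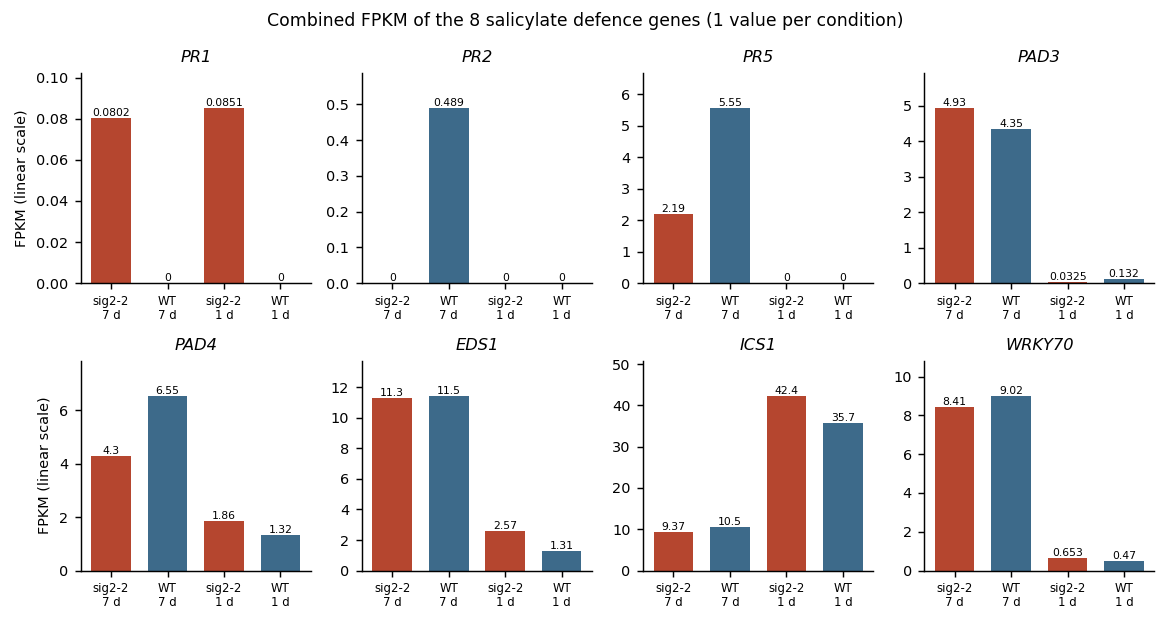
Bars show the authors' combined FPKM of each member on its own linear axis starting at 0, with *sig2-2* in red and WT in blue at 7 d and then at 1 d, and with no error bars because replicates were combined. *PR5* reaches 2.19 FPKM in *sig2-2* against 5.55 FPKM in WT at 7 d, and *ICS1* is the member whose bars are taller at 1 d than at 7 d in both genotypes.

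Over the 8 genes, 6 were lower and 2 were higher in *sig2-2* at 7 d, with a median log2 difference of −0.12 and a range from −1.04 (*PR5*) to 0.15 (*PAD3*). Of all 33078 loci, 12268 were lower and 12195 were higher at 7 d, and the median over all loci was 0. A difference of 2-fold or more on this scale was reached by 1 of the 8, *PR5*, which was lower, and with a pseudocount of 0.1 also by *PR2*. Among all loci, 2.35% were lower and 2.71% were higher by 2-fold or more at 7 d. Among loci at 1 FPKM or more in either genotype, 3.87% were lower and 4.46% were higher. With a single member past 2-fold, the list cannot be set apart from these shares. At 1 d, 5 of the 8 were higher, 1 was lower and 2 were listed at 0 in both genotypes. The median was 0.14 and the range was from −0.13 (*PAD3*) to 0.63 (*EDS1*). Of all loci, 11548 were higher and 11852 were lower at 1 d. None of the 8 reached 2-fold at 1 d, an age at which 1.66% of all loci were higher and 0.653% were lower by that much. Among loci at 1 FPKM or more in either genotype at 1 d, these shares were 2.92% and 1.15%. Only 3 of the 8 (*PAD4*, *EDS1* and *ICS1*) were at 1 FPKM or more in either genotype at 1 d, against 6 of the 8 at 7 d.

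**Figure D2:**
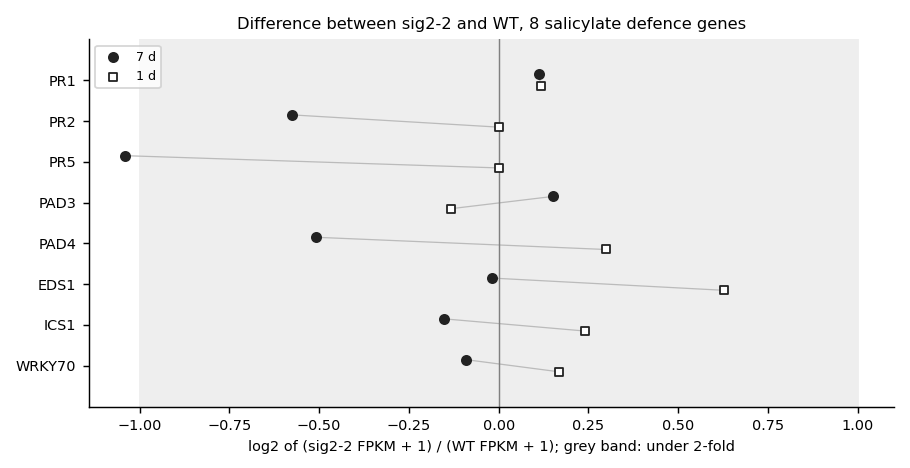
Each member's log2 of (*sig2-2* FPKM + 1)/(WT FPKM + 1) is plotted at 7 d (filled circles) and at 1 d (open squares), and the grey band marks differences under 2-fold. *PR5* at 7 d, at −1.04, is the only point outside the band, and *EDS1* lies at −0.02 at 7 d and at 0.63 at 1 d.

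Except for *PR1* and *PR2*, which were under 1 FPKM throughout, the larger differences of these genes were between ages. As log2 of (7 d + 1)/(1 d + 1), 4 of the 8 members were higher and 1 was lower at 7 d by 2-fold or more in *sig2-2*, and 5 were higher and 1 was lower in WT. In *sig2-2*, 12.3% of all loci were higher and 9.58% were lower by that much, and in WT 12.0% were higher and 8.43% were lower. Among loci at 1 FPKM or more at either age, 19.9% were higher and 15.5% were lower in *sig2-2*, and 19.5% were higher and 13.7% were lower in WT. The median log2 difference of the members was 1.28 in *sig2-2* and 1.97 in WT, and the median of all loci was 0 in both. Both comparisons within an age and both within a genotype share values, so their results are given side by side only.

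*WRKY70* was 12.9-fold higher at 7 d than at 1 d in *sig2-2* (log2 difference 2.51) and 19.2-fold higher in WT (2.77). *EDS1* was 4.40-fold higher at 7 d in *sig2-2* (1.79) and 8.75-fold higher in WT (2.43). *PAD4* was 2.32-fold higher in *sig2-2*, under the 2-fold line on the log2 scale with its pseudocount (0.89), and 4.96-fold higher in WT (1.70). *PAD3* and *PR5* were also higher at 7 d, with log2 differences of 2.52 for *PAD3* and 1.67 for *PR5* in *sig2-2*, and of 2.24 and 2.71 in WT. For *PR5* no fold was computed, because it is listed at 0 at 1 d. *ICS1* was the only member lower by 2-fold or more at 7 d, being 4.52-fold lower at 7 d than at 1 d in *sig2-2* (−2.06) and 3.39-fold lower in WT (−1.67). Subtracting the WT value from the *sig2-2* value of the age difference gave −1.04 for *PR5*, −0.81 for *PAD4* and −0.65 for *EDS1*. It gave −0.39 for *ICS1*, −0.26 for *WRKY70* and 0.28 for *PAD3*. For *PR1* and *PR2*, under 1 FPKM in all 4 conditions, it gave −0.01 and −0.57. The same numbers follow from the genotype differences at 7 d and 1 d, so they restate values given above. They were not set against all loci and were not tested.

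**Figure D3:**
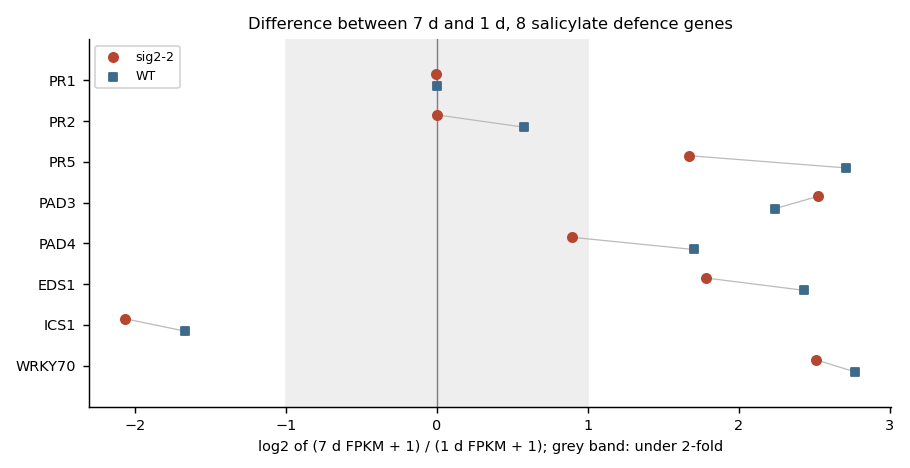
Each member's log2 of (7 d FPKM + 1)/(1 d FPKM + 1) is plotted for *sig2-2* (red circles) and WT (blue squares), and the grey band marks differences under 2-fold. *WRKY70*, *PAD3*, *EDS1* and *PR5* lie to the right of the band in both genotypes, *ICS1* lies to its left in both, and *PAD4* lies inside it in *sig2-2* (0.89) and outside it in WT (1.70).

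In order of level, *EDS1*, *ICS1* and *WRKY70* led at 7 d in both genotypes, at 11.3, 9.37 and 8.41 FPKM in *sig2-2* and at 11.5, 10.5 and 9.02 FPKM in WT. Below them, *sig2-2* had *PAD3*, *PAD4*, *PR5*, *PR1* and *PR2*, and WT had *PAD4*, *PR5*, *PAD3*, *PR2* and *PR1*. At 1 d, *ICS1* stood far above the rest, and 88.6% of loci in *sig2-2* and 86.9% in WT had lower values than *ICS1*. *EDS1* and *PAD4* followed in *sig2-2*, and *PAD4* and *EDS1* followed in WT, at 1.32 and 1.31 FPKM. Without replicate values, it cannot be said which neighbours in these orders differ beyond their spread.

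Likeness to a member was measured as the distance between the 4 log2(FPKM + 1) values after centring each locus on its mean and scaling it to unit length, among the 20936 loci that reached 1 FPKM anywhere in the 4 conditions. It was taken for the 6 members whose values spanned 1 or more on the log2 scale. The nearest loci to *PR5* were *bHLH38*, an iron-deficiency transcription factor, at 3.23 FPKM in *sig2-2* and 9.46 FPKM in WT at 7 d and 0 at 1 d, and *PRB1*, a basic PR1-type protein. The nearest to *EDS1* were *CHUP1*, a protein of chloroplast positioning, and AT5G44350. *DWF1*, a sterol biosynthesis enzyme, and AT5G05790 were nearest to *PAD4*, and AT1G49310 and AT5G62890 to *PAD3*. AT2G17070 and AT3G58110 were nearest to *ICS1*, and AT4G13500 and *MIR850* to *WRKY70*. All these distances were under 0.01. The scaling removes the size of a difference, so a locus that hardly differs between conditions can be nearest to a member. AT5G62890 was at 83.5 FPKM in *sig2-2* and 82.8 FPKM in WT at 7 d, and at 73.2 and 73.7 FPKM at 1 d. *DWF1* was at 240 FPKM in *sig2-2* and 266 FPKM in WT at 7 d, and at 200 and 188 FPKM at 1 d. With only 4 conditions such likeness is common, and between 222 loci (for *PAD4*) and 905 loci (for *WRKY70*) lay within a distance of 0.1.

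A wider list of 59 genes of SA synthesis, signalling and response was compared in the same way, of which 58 had a locus of their own and *SARD4* was listed jointly with a neighbour. The list was chosen with earlier results of these data known, so the shares beside its counts are description only. At 7 d, 5 of the 58 were higher and 6 were lower in *sig2-2* by 2-fold or more, or 19.0% in all, against 5.05% of all loci and 8.33% of loci at 1 FPKM or more in either genotype. With a pseudocount of 0.1, 5 were higher and 10 were lower, against 5.38% and 5.43% of all loci, and the 4 further lower genes were *EDS5*, *EPS1*, *NIMIN1* and *WRKY54*. The median log2 difference of the 58 was 0.00 with a pseudocount of 1. At 1 d, 2 of the 58 were higher and 0 were lower, or 3.45%, against 2.32% of all loci and 4.06% of loci at 1 FPKM or more, and the median was 0.01. With a pseudocount of 0.1, 5 were higher and 2 were lower at 1 d, against 5.1% and 2.43% of all loci. Between ages, 25 were higher and 3 were lower at 7 d in *sig2-2*, and 23 were higher and 3 were lower in WT. That is 48.3% of the 58 in *sig2-2*, against 21.9% of all loci and 35.5% of loci at 1 FPKM or more at either age, and 44.8% in WT, against 20.4% and 33.2%.

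Of the 8 further genes of SA synthesis, 7 were lower and 1 was higher in *sig2-2* at 7 d (median −0.74). At 1 d, 7 were higher and 1 was at 0 in both genotypes (median 0.59). Of all 33078 loci, 12268 were lower and 12195 were higher in *sig2-2* at 7 d, and 11852 were lower and 11548 were higher at 1 d. *ICS2*, the second isochorismate synthase gene, was at 2.47 FPKM in *sig2-2* and 5.96 FPKM in WT at 7 d (log2 difference −1.003, past 2-fold), and at 4.90 FPKM in *sig2-2* and 2.30 FPKM in WT at 1 d (0.84). *EDS5*, the transporter that exports isochorismate from plastids, was at 1.60 FPKM in *sig2-2* and 4.17 FPKM in WT at 7 d (−0.99), on an interval of the table that it shares with another locus. *EPS1*, which acts on the conjugate made from isochorismate, was at 2.55 FPKM in *sig2-2* and 5.86 FPKM in WT at 7 d (−0.95). *PAL1*, a phenylalanine ammonia-lyase of the other SA route and of phenylpropanoid synthesis, was at 30.2 FPKM in *sig2-2* and 9.71 FPKM in WT at 1 d (1.54, past 2-fold). At 7 d *PAL1* was at 69.5 FPKM in *sig2-2* and 116 FPKM in WT (−0.73). Of these 8 genes, 6 were higher in *sig2-2* at 1 d and lower at 7 d, as *ICS1* was, and 2 (*PBS3* and *PAL4*) were not. The 6 include *EPS1*, which at 1 d was nearly equal, at 3.56 FPKM in *sig2-2* and 3.53 FPKM in WT (0.01). At 1 d the differences of *PAL3* (0.19) and *EDS5* (0.38) were also small. The share of all loci with such a change of side was not computed, so whether 6 of 8 is unusual cannot be said.

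Of the 6 genes grouped in the wider list as SA-induced, 5 were lower in *sig2-2* at 7 d and 1 was higher (median −1.003). Whether each of them, *PRB1* included, responds to SA was not tested here. Of all loci, 12268 were lower and 12195 were higher at that age. Among the lower genes, *BG3* was under 1 FPKM, at 0.0993 FPKM in *sig2-2* and 0.174 FPKM in WT (−0.09). At 1 d, 5 of the 6 were listed at 0 in both genotypes. *PCC1* was at 3.10 FPKM in *sig2-2* and 57.5 FPKM in WT at 7 d (log2 difference −3.83). Only 64.2% of its exonic words of 55 bases occurred once in TAIR10.1, so its level is less certain than the others. *PRB1*, a basic relative of *PR1*, was at 3.81 FPKM in *sig2-2* and 11.5 FPKM in WT at 7 d (−1.37). *LURP1*, a gene induced by oomycete infection, was at 1.26 FPKM in *sig2-2* and 4.18 FPKM in WT (−1.20). *GRXC9*, a glutaredoxin that binds TGA factors, stood on the other side, at 3.61 FPKM in *sig2-2* and 0.278 FPKM in WT at 7 d (1.85). At 1 d *GRXC9* was at 4.71 FPKM in *sig2-2* and 8.91 FPKM in WT (−0.79).

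The other 4 genes past 2-fold in the higher direction at 7 d belonged to different roles. *CBP60g*, an activator of *ICS1* transcription, was at 9.37 FPKM in *sig2-2* and 3.78 FPKM in WT at 7 d (log2 difference 1.12). The other *ICS1* regulators of the list, *SARD1* (0.08) and *CBP60a* (0.45), were under 2-fold at that age. *WRKY40*, a repressor of defence genes, was at 10.5 FPKM in *sig2-2* and 1.66 FPKM in WT at 7 d (2.12). Its locus shares an interval of the table with 1 neighbouring gene, so reads may have been split between them. *FMO1*, the enzyme that makes the systemic signal N-hydroxypipecolate, was at 3.61 FPKM in *sig2-2* and 0.587 FPKM in WT at 7 d (1.54). *ALD1*, an earlier enzyme of that pathway, was at 2.77 FPKM in *sig2-2* and 1.35 FPKM in WT (0.68). *DMR6*, an SA hydroxylase that lowers SA levels, was at 27.1 FPKM in *sig2-2* and 10.5 FPKM in WT at 7 d (1.295), and at 1.59 FPKM in *sig2-2* and 0.527 FPKM in WT at 1 d (0.76).

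Around *PAD3*, all 5 further camalexin genes were lower in *sig2-2* at 7 d (median log2 difference −0.42), not all of them by much. Of all loci, 12268 were lower and 12195 were higher at that age. *CYP71A13*, which makes the nitrile intermediate, was at 0.659 FPKM in *sig2-2* and 2.94 FPKM in WT (−1.25), and its close copy *CYP71A12* was at 17.1 FPKM in *sig2-2* and 18.6 FPKM in WT (−0.11). *GGP1*, a peptidase that also serves glucosinolate synthesis, was at 43.0 FPKM in *sig2-2* and 114 FPKM in WT (−1.38). *CYP79B3*, which makes indole-3-acetaldoxime for camalexin and indole glucosinolates, was at 35.4 FPKM in *sig2-2* and 39.9 FPKM in WT at 7 d (−0.17). At 1 d *CYP79B3* was at 10.08 FPKM in *sig2-2* and 3.17 FPKM in WT (1.41, past 2-fold).

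With a pseudocount of 1, 2-fold between genotypes was reached by 0 of the 7 further genes of the EDS1 node. It was also reached by 0 of the 12 NPR, NIMIN and TGA genes. Among all loci the shares were 5.05% at 7 d and 2.32% at 1 d. Among loci at 1 FPKM or more in either genotype they were 8.33% at 7 d and 4.06% at 1 d. With groups of 7 and 12 genes, counts of 0 cannot be set apart from these shares. Among the 12, the count of 0 depends on the pseudocount. *NIMIN1*, which encodes an NPR1-interacting protein, was at 0.132 FPKM in *sig2-2* and 0.373 FPKM in WT at 7 d, and at 0.619 FPKM in *sig2-2* and 1.90 FPKM in WT at 1 d. Its log2 differences were −0.28 at 7 d and −0.84 at 1 d, and with a pseudocount of 0.1 they were −1.03 and −1.48. *NIMIN2*, of the same kind, was at 2.62 FPKM in *sig2-2* and 5.55 FPKM in WT at 1 d (−0.86, or −1.06 with a pseudocount of 0.1). The median log2 difference of the 7 was 0.15 at 7 d and 0.04 at 1 d, and that of the 12 was 0.05 at 7 d and −0.08 at 1 d. *NPR1*, the SA coactivator, was at 13.1 FPKM in both *sig2-2* and WT at 7 d, on an interval shared with another locus. Of the 9 further WRKY genes, 4 were higher and 5 were lower in *sig2-2* at 7 d, against 12195 higher and 12268 lower of all loci. The 5 include *WRKY53*, which was at 1.26 FPKM in both genotypes. Only 6 of the 9 were at 1 FPKM or more in either genotype at 7 d. *WRKY40* was the one past 2-fold at 7 d with a pseudocount of 1. *WRKY54*, the closest relative of *WRKY70*, was at 0.771 FPKM in *sig2-2* and 2.19 FPKM in WT at 7 d (−0.85), and passed 2-fold with a pseudocount of 0.1 (−1.40).

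**Figure D4:**
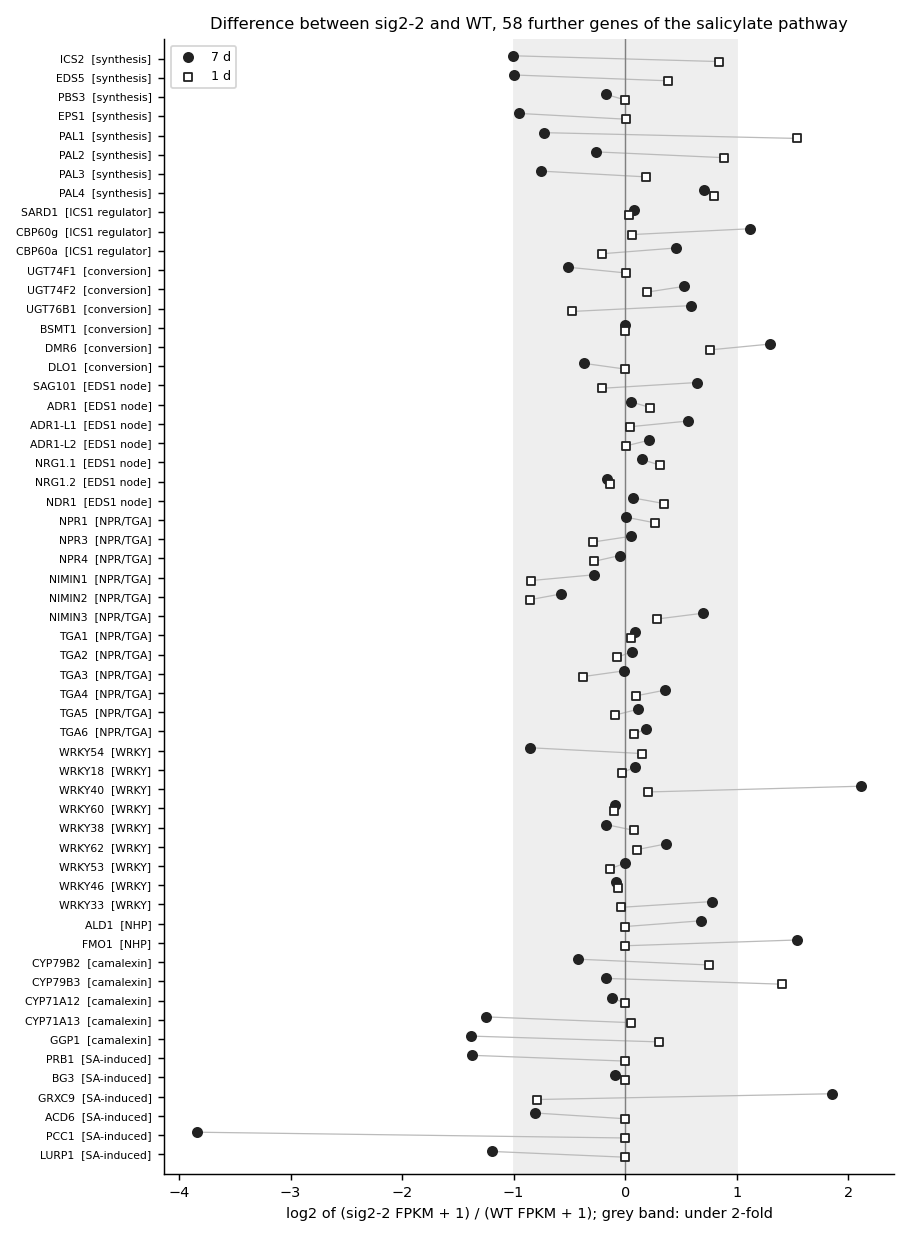
The log2 of (*sig2-2* FPKM + 1)/(WT FPKM + 1) of the 58 further genes is plotted at 7 d (filled circles) and 1 d (open squares) by role, and the grey band marks differences under 2-fold. At 7 d, 5 circles lie to the right of the band (*CBP60g*, *DMR6*, *WRKY40*, *FMO1* and *GRXC9*) and 6 to its left, with *PCC1* at −3.83 the farthest.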

How the data were processed

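RNA-Seq of whole *sig2-2* and WT seedlings at 7 d and 1 d was processed by the authors with Cufflinks and Cuffdiff, of versions not given in the sources used here, like the aligner, annotation and build. The deposited FPKM values combine the 3 replicates of a condition into 1 value per locus. The authors' own fold changes and p- and q-values in the same table were not used. The number of reads of each sample is not given in the sources used here.

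Members were matched by identifier and overlap with the TAIR10.1 position, which held for 32048 of 33078 loci, and *PR1* by symbol and position. The members, the wider list and the comparisons were chosen with earlier results of these data known. Values were compared as log2 with a pseudocount of 1, called at 2-fold, with no test. Named are all members, *SIG2*, genes of the wider list past 2-fold between genotypes and the 2 nearest loci in pattern. *EDS5*, *EPS1*, *ALD1*, *NPR1*, *WRKY53*, *WRKY54*, *CYP71A12*, *PBS3*, *PAL3*, *PAL4*, *NIMIN1*, *NIMIN2*, *BG3*, *SARD1*, *CBP60a*, *CA1*, *CASP1*, *OLEO2*, *SESA3*, *EDS1B* and *SARD4* were named after their values were seen. Values in the tables of single conditions were the same, with a largest difference of 0. Python 3.11.15, pandas 2.3.3, numpy 2.4.6 and matplotlib 3.10.9 were used.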

Additional observations from a re-analysis of the deposited data

How the results depend on the processing

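The tables of single conditions hold the same values, so the 12 results recomputed from them were bound to be the same and are no check of the processing. With a pseudocount of 0.1, 2 of the 8 members were past 2-fold between genotypes at 7 d, since *PR2*, listed at 0 in *sig2-2*, was then at −2.56 and *PR5* at −1.30, and 7 of the 58 further genes were past 2-fold at 1 d, 5 higher and 2 lower. The members' median log2 difference between *sig2-2* and WT at 7 d was −0.13 with a pseudocount of 0.1, −0.15 with conditions centred on the median of 16872 loci, and −0.15 with members by identifier alone, a setting chosen after seeing the data. At 1 d it was 0.32 with a pseudocount of 0.1, 0.30 over the 3 members left when loci under 1 FPKM in both were dropped, and 0.17 by identifier alone. Between 7 d and 1 d in *sig2-2* it was 1.63 with a pseudocount of 0.1, 1.73 over the 6 members left after the filter, 1.29 after centring and 1.67 by identifier alone. In WT it was 2.80 with a pseudocount of 0.1, 2.34 after the filter, 2.00 after centring and 2.24 by identifier alone. No median changed sign. *ICS2* and *PR5* lie close to the 2-fold line. No paired analysis was possible because the columns hold 1 combined value per condition, and for the same reason no replicate was left out. The unknown depth limits what can be said of *PR1* and *PR2*.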

Other observations

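Other defence genes, picked after their values were seen and so no test of any direction, are given here as values. *PR3*, a basic chitinase, was at 19.9 FPKM in *sig2-2* and 19.8 FPKM in WT at 7 d, and *PR4*, a hevein-like protein, at 69.0 FPKM in *sig2-2* and 85.3 FPKM in WT. *PDF1.2*, a plant defensin induced by jasmonate and ethylene, was listed at 0 in *sig2-2* and at 25.8 FPKM in WT at 7 d. *WAK1*, a wall-associated kinase, was at 2.61 FPKM in *sig2-2* and 7.23 FPKM in WT at 7 d. *AIG1*, a gene induced by bacterial avirulence, was at 3.51 FPKM in *sig2-2* and 1.12 FPKM in WT at 7 d, and *PRX34*, a cell wall peroxidase, at 137 FPKM in *sig2-2* and 57.4 FPKM in WT. *GSTF6*, a glutathione transferase, was at 204 FPKM in *sig2-2* and 82.2 FPKM in WT at 7 d, and *SAG21*, an oxidative stress-responsive gene, at 1772 FPKM in *sig2-2* and 243 FPKM in WT. *SNC1*, a resistance gene, was at 25.6 FPKM in *sig2-2* and 21.9 FPKM in WT at 7 d, and the kinase gene *MPK4* was at 35.4 FPKM in *sig2-2* and 33.0 FPKM in WT. Of 2 genes often used as references, *ACT2*, an actin gene, was at 729 FPKM in *sig2-2* and 370 FPKM in WT at 7 d and at 397 FPKM in *sig2-2* and 321 FPKM in WT at 1 d. *UBQ10*, a ubiquitin gene, was at 956 FPKM in *sig2-2* and 769 FPKM in WT at 7 d, and at 612 FPKM in *sig2-2* and 681 FPKM in WT at 1 d.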
